A study of Mus musculus with 9 samples.

Results

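The genes described here encode the proteasome, taken as the rows annotated as protein coding whose symbol begins with Psm, a letter from a to g and a digit. They were 50 of the 50600 genes in the tables. Of these, 49 encode subunits, activators, an inhibitor or assembly chaperones of the proteasome, and Psmc3ip, a recombination factor named for its binding to Psmc3, is counted apart. The RNA came from RAW-Blue, a reporter derivative of the mouse macrophage line RAW 264.7, which carries a secreted reporter for NF-kappaB and AP-1 signalling. The None group had no stimulus, and the LPS group received lipopolysaccharide, a cell wall component of Gram-negative bacteria sensed by Tlr4, at 1 µg/ml for 24 hours. Both groups are the same reporter line grown in the same serum-supplemented medium with Normocin, Zeocin and penicillin-streptomycin. Each group had 3 libraries. The labels also describe 3 samples given plant vesicles before LPS, which were not analysed here because no column name matched them. Nothing in the labels says that replicates came from separate cultures, so the tests reflect spread among these libraries alone, which may be technical.

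The proteasome is the main protease for ubiquitin-tagged proteins in the cytosol and nucleus. Its core, the 20S particle, is a barrel of stacked rings, in which alpha subunits (Psma genes) form the gate and beta subunits (Psmb genes) hold the proteolytic sites. The 19S cap uses ATPases (Psmc genes) to unfold substrates and non-ATPase subunits (Psmd genes) to bind ubiquitin and remove it. Interferon and other inflammatory signals are known to induce Psmb8, Psmb9 and Psmb10, which replace the catalytic subunits Psmb5, Psmb6 and Psmb7 in newly built immunoproteasomes, and Psme1 and Psme2, which form the cap PA28 alpha-beta. These particles shape the peptides that macrophages present on MHC class I.

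Estimated counts per library summed to between 14650843 and 17665200, and a tested proteasome gene had at least 88 counts in each library. Of the macrophage markers listed, 9 of 10 had a mean over 1 TPM (a share of all transcripts, corrected for transcript length), led by Lyz2. The T cell, B cell, dendritic, epithelial and fibroblast or endothelial lists had no gene over 1 TPM, and their summed levels stayed at or below 1.46 TPM. The neutrophil list, with Ly6g and Mpo at 0, went from between 0.57 and 1.20 TPM in None to between 66.2 and 84.9 TPM in LPS, mostly from S100a8, and its part in the results below was not tested. In bulk RNA, fewer cells of a kind and less RNA per cell cannot be told apart. The first axis of variation held 90.9% of the variance and the second 3.23%. On the second, LPS replicate 1 stood apart at 23.0 against -7.49 and -16.0 for the other LPS libraries.

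Most proteasome genes were expressed at a higher level after LPS, but neither the inducible nor the constitutive genes all changed alike. The largest increases were those of the cap genes Psmd11, Psme2 and Psmd8, followed by the assembly chaperone Psmd10 and the alpha subunit Psma6. Of the 48 proteasome genes with enough counts for a test, 35 rose (72.9%) and 4 fell (8.33%) by edgeR's quasi-likelihood test, and 9 were not called. Over all 11916 genes tested, 69.1% were called, 34.0% higher and 35.1% lower. The median log2 fold change of the proteasome genes was 0.46, against -0.03 for all genes tested. Of 5 inducible genes 4 were called higher, with a median of 0.38, and of 43 constitutive genes 31, with a median of 0.46. Log2 fold changes ran from -0.15 (Psmb10) to 1.67 (Psme2) among the inducible and from -0.31 (Psmc3) to 1.88 (Psmd11) among the constitutive genes. Psmb11, the beta subunit of the thymus, had 0 counts in every library, which allows up to 3 counts in each, and was not tested.

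These changes are relative to TMM scaling, which centres the bulk of genes. Scaling by library totals alone shifted log2 fold changes by -0.26 at the median over all genes, and TPM values shifted them by -0.20. With library totals, 24 of the 48 proteasome genes were called higher, beside 22.5% of all genes, and 11 were lower, beside 51.0%, and the median was 0.20 where that of all genes was -0.29. On log2(TPM + 1) values with limma, 22 were higher, beside 23.5% of all genes, and 6 lower, beside 43.2%, with medians of 0.20 and -0.19. No gene called higher with TMM was called lower with either scaling, and the 4 lower calls held under both. The size of the changes was moderate: 5 proteasome genes (10.4%) differed at least 2-fold, all of them higher, where 23.1% of all genes did. Values of the groups did not overlap in 39 of 48 genes (81.2%) in CPM (read counts per library total, scaled by TMM), beside 73.6% of all genes tested. In TPM they did not overlap in 33 of 48 (68.8%), beside 71.6% of all genes.

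**Figure D1:**
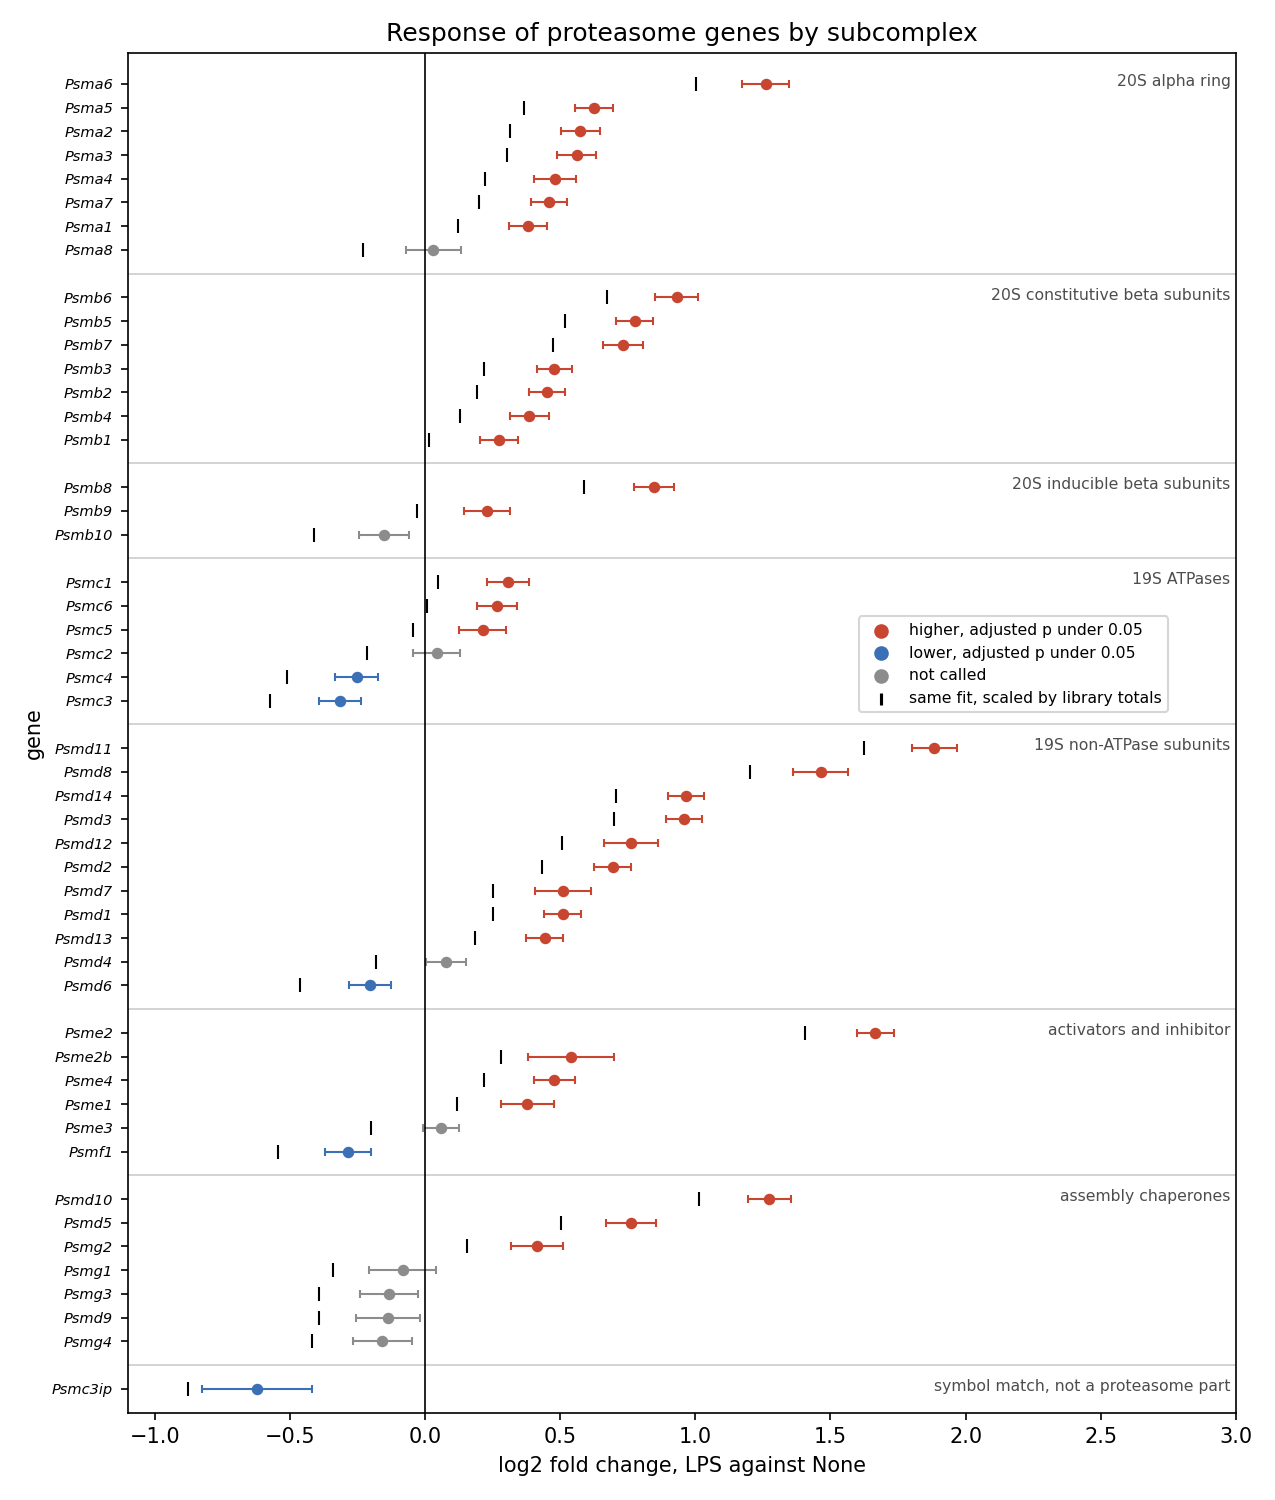
Log2 fold change of LPS against None (x axis) for each tested gene (y axis), grouped by subcomplex and sorted within it. Dots are edgeR estimates with TMM scaling, bars are standard errors, colours mark calls at an adjusted p under 0.05, and ticks give the same fit scaled by library totals. Psmd11 lies farthest right at 1.88, and Psmb8, Psmb9 and Psmb10 spread from 0.85 to -0.15.

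Psmb8, the inducible subunit with chymotrypsin-like activity (chromosome 17, 34197790 to 34201454, GRCm38), had 97.5, 90.0 and 100.1 TPM in None and 136.0, 149.4 and 144.8 TPM in LPS. All LPS libraries lay above all None libraries. The gene rose 1.80-fold, with a log2 fold change of 0.85 ± 0.07 (SE) and an adjusted p of 5.83e-07. Its constitutive counterpart Psmb5 (chromosome 14, 54614119 to 54618022) had 155.4, 148.9 and 149.1 TPM in None and 225.2, 216.7 and 220.6 TPM in LPS. The groups did not overlap here either. Psmb5 rose 1.71-fold, with a log2 fold change of 0.78 ± 0.07 and an adjusted p of 6.40e-07. The share of Psmb8 in this pair was 38.8% ± 1.27 of the pair's TPM in None and 39.4% ± 1.6 in LPS (SD, n = 3), and the libraries of the groups overlapped.

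Psmb9, the inducible subunit with the caspase-like position (chromosome 17, 34181987 to 34187764), was the lowest of the inducible genes. It had 25.4, 25.6 and 24.5 TPM in None and 25.6, 25.9 and 22.8 TPM in LPS, so the groups overlapped on this scale. In CPM with TMM scaling it went from 21.35 ± 0.54 to 25.03 ± 0.55 and was called 1.17-fold higher at an adjusted p of 0.0287, but its log2 fold change of 0.23 became -0.03 with library totals and -0.02 on log2(TPM + 1) values. The call was also lost without None replicate 2 (adjusted p of 0.11), without None replicate 3 (0.0927), without LPS replicate 1 (0.0693) and without a filter on low counts (0.0802), and the adjusted p ranged from 0.0193 to 0.82 over all alternatives. Its counterpart Psmb6 (chromosome 11, 70525386 to 70527649) had 167.8, 181.5 and 182.6 TPM in None and 267.4, 294.6 and 302.7 TPM in LPS. Psmb6 was the constitutive beta gene with the largest increase, 1.91-fold, with an adjusted p of 4.75e-07. The share of Psmb9 in the pair was 13.1%, 12.4% and 11.8% in None and 8.742%, 8.095% and 7.004% in LPS, lower in every LPS library.

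Psmb10, the inducible subunit with trypsin-like activity (chromosome 8, 105935739 to 105938444), had 41.8, 42.1 and 35.0 TPM in None and 28.2, 39.5 and 33.8 TPM in LPS. The groups overlapped in TPM, and in CPM the LPS libraries lay just below the None libraries, at 24.2 ± 1.83 against 26.9 ± 1.49. It was not called, with a log2 fold change of -0.15 and an adjusted p of 0.164. With library totals the value was -0.41 and was called lower, with an adjusted p of 0.0023 (0.0023 to 0.43 over all alternatives). Psmb7, its constitutive counterpart (chromosome 2, 38588036 to 38644087), had 186.2, 184.5 and 202.1 TPM in None and 266.4, 275.3 and 269.4 TPM in LPS. Psmb7 rose 1.66-fold in CPM, from a mean of 140.7 to 233.7, or 1.42-fold in mean TPM. The share of Psmb10 in this pair was 17.2% ± 2.14 in None and 11.1% ± 1.49 in LPS, and no LPS library reached the level of a None library. Pairs of shares were not tested, since the exact permutation test of 3 against 3 libraries cannot go below a two-sided p of 0.10.

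**Figure D2:**
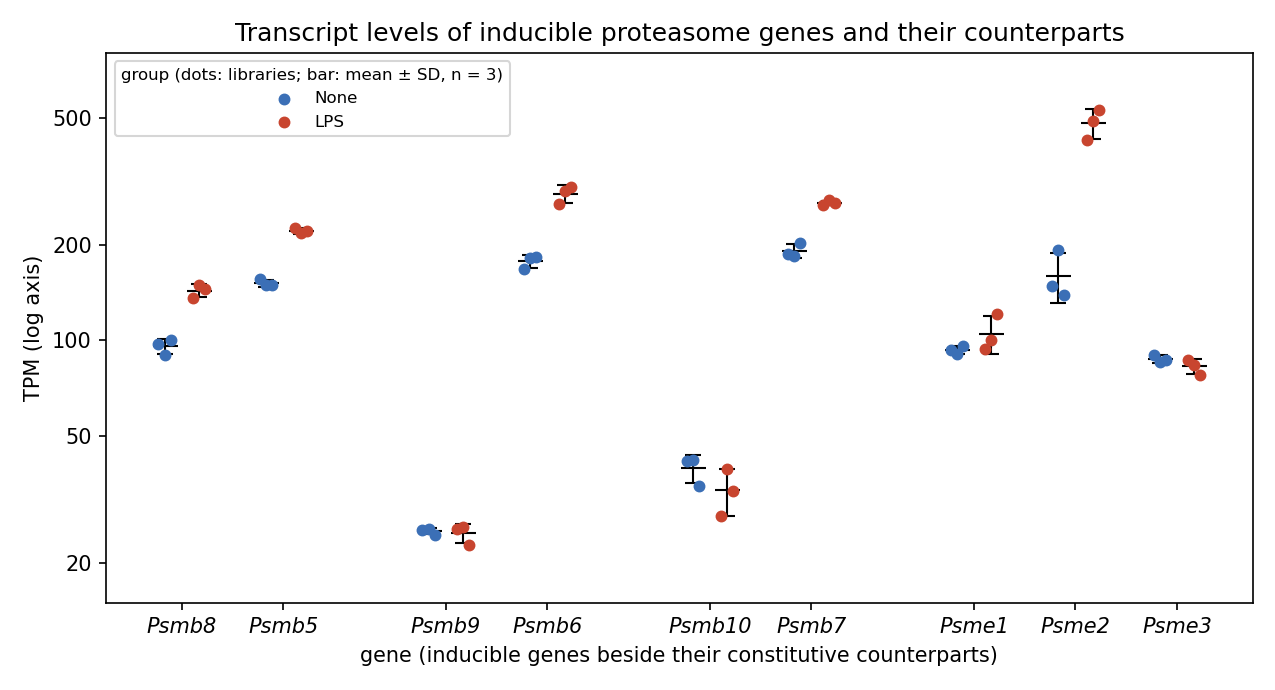
TPM on a log axis (y axis) for the 5 inducible genes and their constitutive counterparts (x axis), with a dot for each library and bars for the mean ± SD (n = 3). Psme2 in LPS stands at 483 TPM, far above its None libraries, while the dots of Psmb9, Psmb10, Psme1 and Psme3 overlap between the groups.

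The PA28 genes Psme1 and Psme2 lie 5913 bases apart on chromosome 14 on opposite strands, and their products assemble into one ring. Psme2 (chromosome 14, 55587442 to 55591101) had 148.1, 191.7 and 138.6 TPM in None and 426.2, 490.7 and 530.8 TPM in LPS. Every LPS library held more than 2 times the level of any None library. The gene rose 3.17-fold, with a log2 fold change of 1.67 ± 0.07 and an adjusted p of 6.50e-10. Psme1 (chromosome 14, 55578360 to 55581528) had 93.5, 90.6 and 96.2 TPM in None and 94.0, 100.0 and 120.8 TPM in LPS, where only LPS replicate 2 and 3 exceeded all None libraries. It was called 1.3-fold higher at an adjusted p of 0.00393, and that call was lost with library totals (log2 fold change of 0.12) and on log2(TPM + 1) values (0.16). The ratio of Psme2 to Psme1 TPM was 1.58, 2.12 and 1.44 in None and 4.53, 4.91 and 4.39 in LPS.

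Psme3 encodes PA28 gamma, the nuclear relative of those proteins. It had 90.1, 85.7 and 86.5 TPM in None and 87.0, 83.8 and 77.9 TPM in LPS and was not called with TMM, at a log2 fold change of 0.06, or -0.20 and called lower with library totals. Psme2 held 64.3% ± 4.19 of the summed TPM of Psme2 and Psme3 in None and 85.2% ± 2.09 in LPS. For Psme1 against Psme3 the shares were 51.7% ± 0.89 and 55.7% ± 4.58, a difference of 4.04 percentage points that was 1.5 without LPS replicate 3.

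**Figure D3:**
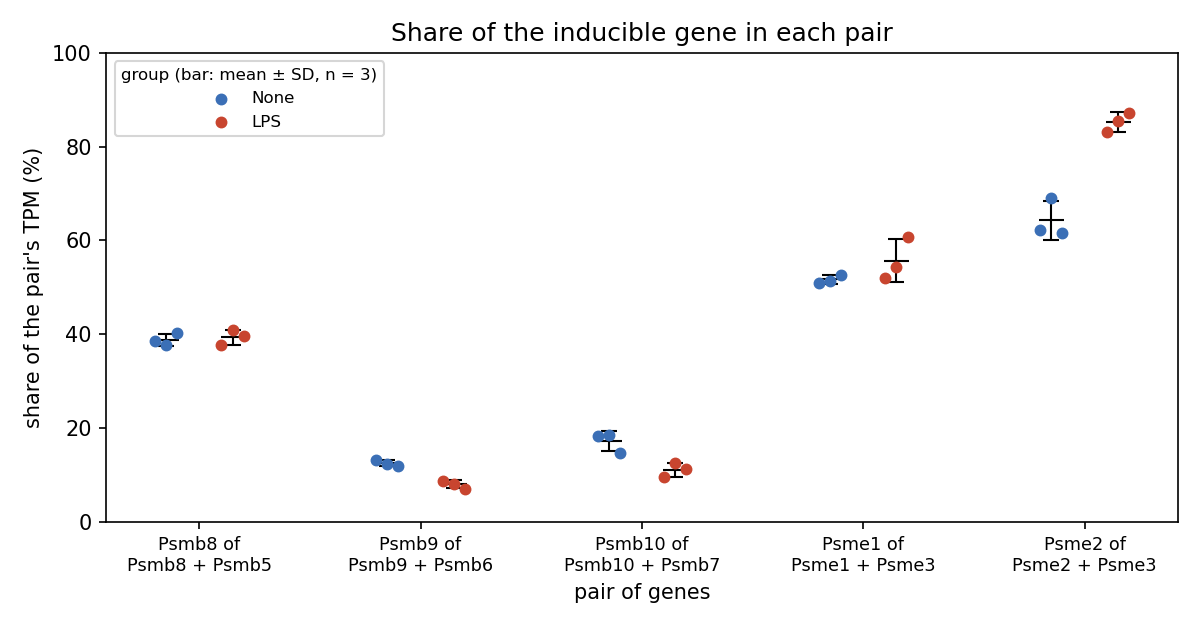
Share of the inducible gene in the summed TPM of each pair (y axis, %), by pair (x axis), with a dot for each library and bars for the mean ± SD (n = 3). The share of Psmb8 overlaps between the groups, those of Psmb9 and Psmb10 are lower in every LPS library, and that of Psme2 is higher.

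Sequence before the start site was looked at for the catalytic genes and the strongest responders, since factors of the interferon, NF-kappaB and NRF1 or NRF2 pathways are known to act there. Of the 49 proteasome genes, 41 had a RefSeq promoter (GRCm38.p6). The 250 bases before each listed start were searched on both strands for GAAA followed by GAAA with 2 bases between (interferon regulatory factors), TTCNNNGAA (the gamma-activated sequence, GAS), GGGA followed by CC with 4 bases between (NF-kappaB), TGACNNNGC (the antioxidant response element) and CCAAT. Among the 5 inducible genes, none held the first motif, beside 3.46% of the 27025 genes of the table, and only Psmb8 held the GAS motif, beside 8.13%. None held the NF-kappaB motif, beside 19.7%, or the antioxidant motif, beside 11.5%, and Psmb9 held CCAAT, beside 37.5%. Among 36 constitutive genes with a promoter, 10 held the NF-kappaB motif, among them Psmd11, and Psma6 at the later of its 2 listed starts, and 5 the antioxidant motif, namely Psmb5, Psmb6, Psmc6, Psmd12 and Psmd9. The constitutive genes held the first motif in 3, GAS in 1 and CCAAT in 13. A match is a run of letters and not a shown binding site, and a window without one says nothing about sites elsewhere.

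Of 29 genes called higher with a promoter, 9 held the NF-kappaB motif (31%) and 4 the antioxidant motif (13.8%), beside 19.7% and 11.5% of all genes. The first motif and GAS were in 1 each (3.45%), beside 3.46% and 8.13%. A link between motif and change was not tested. The lines below are examples from constitutive genes that rose (Psmb5, Psmb6, Psmd11) and inducible genes without the first 4 motifs (Psmb10, Psme2). They end with the GAS match of Psmb8. Psme2 and Psmb8 rose too, so the lines do not set genes that rose against genes that did not. The lines run in the direction of the gene, with matches to the first 4 motifs in capitals. All but that of Psmb8 leave out annotated exons. GENCODE places the whole Psmb8 window in exon, the GAS match included, so only the match with its flanks is shown. It lies before the RefSeq start but inside the Psmb8 span given above (34197790 to 34201454). The same holds for the window of Psmb9, which is not shown. The positions are chr14:54618023-54618245 for Psmb5 (minus strand), chr11:70525107-70525356 for Psmb6 (plus), chr11:80428365-80428614 for Psmd11 (plus), chr8:105938445-105938642 for Psmb10 (minus), chr14:55591114-55591351 for Psme2 (minus) and chr17:34198088-34198116 for Psmb8 (plus). In Psmb5 and Psmb6 the capitals are the antioxidant motif, in Psmd11 the NF-kappaB motif and in Psmb8 the GAS motif.
Psmb5: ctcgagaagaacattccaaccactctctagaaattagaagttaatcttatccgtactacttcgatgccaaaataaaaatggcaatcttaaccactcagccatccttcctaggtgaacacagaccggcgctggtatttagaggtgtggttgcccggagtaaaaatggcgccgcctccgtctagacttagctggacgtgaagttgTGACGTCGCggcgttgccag
Psmb6: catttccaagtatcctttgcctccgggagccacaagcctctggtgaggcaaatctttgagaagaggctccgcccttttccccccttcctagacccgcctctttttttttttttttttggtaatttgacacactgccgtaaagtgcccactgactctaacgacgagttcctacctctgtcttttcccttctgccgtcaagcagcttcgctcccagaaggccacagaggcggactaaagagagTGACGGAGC
Psmd11: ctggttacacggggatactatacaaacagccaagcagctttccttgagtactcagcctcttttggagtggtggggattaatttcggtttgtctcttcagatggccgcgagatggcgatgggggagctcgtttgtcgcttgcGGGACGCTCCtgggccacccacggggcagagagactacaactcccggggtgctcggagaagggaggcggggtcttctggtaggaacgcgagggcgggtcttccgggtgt
Psmb10: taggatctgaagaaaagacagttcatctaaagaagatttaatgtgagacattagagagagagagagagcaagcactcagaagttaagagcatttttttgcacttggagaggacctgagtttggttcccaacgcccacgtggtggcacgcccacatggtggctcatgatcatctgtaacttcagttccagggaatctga
Psme2: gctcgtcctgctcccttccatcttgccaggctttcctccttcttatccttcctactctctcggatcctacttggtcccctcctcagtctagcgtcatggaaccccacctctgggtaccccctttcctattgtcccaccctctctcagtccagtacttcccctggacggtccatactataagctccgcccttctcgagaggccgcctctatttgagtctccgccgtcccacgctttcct
Psmb8: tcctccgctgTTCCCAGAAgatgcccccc

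Genes of the alpha ring rose together in 7 of 8, with log2 fold changes from 0.38 for Psma1 to 0.62 for Psma5 in 6 of them and a larger value for Psma6. With library totals 6 of the 8 were called higher and none lower. Among all genes tested, 34.0% were higher and 35.1% lower with TMM, and 22.5% and 51.0% with library totals. Psma6 (chromosome 12, 55384222 to 55418310) had 213.4, 222.5 and 241.3 TPM in None and 508.9, 458.8 and 416.4 TPM in LPS. The groups were far apart, and the gene rose 2.4-fold (log2 fold change of 1.26 ± 0.09, adjusted p of 6.88e-08). Psma8, the alternative alpha subunit of the testis, was the lowest of the ring, at 15.2 ± 1.36 TPM in None and 13.3 ± 0.26 in LPS. It was not called, with a log2 fold change of 0.03, or -0.23 with library totals.

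All 7 constitutive beta genes rose, with log2 fold changes from 0.27 for Psmb1 to 0.93 for Psmb6, and 5 of the 7 with library totals. Of all genes tested, 34.0% were higher with TMM and 22.5% with library totals. The catalytic genes Psmb5, Psmb6 and Psmb7 had the largest values of the ring, between 0.73 and 0.93. The structural genes Psmb1, Psmb2, Psmb3 and Psmb4 lay between 0.27 and 0.48. In None the levels of the 7 genes spanned 2.17-fold, from 151 TPM for Psmb5 to 328 TPM for Psmb3, and in LPS 1.83-fold. The summed level of the 7 genes was 1503 ± 7.52 TPM in None and 1895 ± 47.8 TPM in LPS, against 160.6 ± 3.61 and 202 ± 12.6 TPM for the inducible beta genes.

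The ATPases of the 19S cap moved in both directions, with a median log2 fold change of 0.13. Psmc1, Psmc5 and Psmc6 rose, Psmc3 and Psmc4 fell and Psmc2 was not called, while with library totals none was called higher and the same 2 were lower. These are 3 and 2 of 6 with TMM, beside 34.0% higher and 35.1% lower over all genes tested. With library totals the shares over all genes were 22.5% and 51.0%. Psmc1 (chromosome 12, 100110154 to 100123405), the largest increase, had 127.3, 141.8 and 143.5 TPM in None and 136.3, 157.1 and 143.8 TPM in LPS, which overlap. It was called 1.24-fold higher in CPM at an adjusted p of 0.00396, with a log2 fold change of 0.31, or 0.05 and not called with library totals. Psmc3 (chromosome 2, 91054009 to 91059432) had 121.0, 130.4 and 132.5 TPM in None and 77.5, 90.2 and 80.5 TPM in LPS, lower in every library. It fell 1.24-fold in CPM at an adjusted p of 0.00329, and its log2 difference on log2(TPM + 1) values was -0.62. Psmc2 had 55.8 ± 4.80 TPM in None and 49.4 ± 5.58 in LPS and a log2 fold change of 0.04, or -0.21 with library totals. The summed level of the 6 ATPases was 585 ± 39.1 TPM in None and 516 ± 34.1 in LPS, whereas that of the non-ATPase subunits was 1100 ± 59.7 and 1731 ± 17.7 TPM.

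Of 11 non-ATPase subunits of the cap, 9 rose, 1 fell and 1 was not called, and with library totals 8 rose and 2 fell. The shares over all genes tested were 34.0% higher and 35.1% lower, or 22.5% and 51.0% with library totals. Psmd11, a scaffold subunit of the lid (chromosome 11, 80428625 to 80473248), had 66.4, 66.2 and 64.5 TPM in None and 264.1, 222.3 and 217.3 TPM in LPS. This was the largest fold change among the proteasome genes, 3.69-fold with an adjusted p of 1.26e-09. LPS replicate 1 was the highest of the LPS libraries, and all of them lay above 3 times the None level. Psmd8, another lid subunit (chromosome 7, 29174188 to 29180701), was singled out after its values were seen. It had 193.0, 233.9 and 244.8 TPM in None and 517.9, 503.4 and 558.1 TPM in LPS, rose 2.76-fold (adjusted p of 8.47e-08) and was the most abundant proteasome transcript in LPS.

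The deubiquitinating subunit Psmd14 and the lid subunit Psmd3 had log2 fold changes of 0.97 and 0.96, and Psmd12, Psmd2, Psmd7, Psmd1 and Psmd13 lay between 0.44 and 0.76. Psmd6 (chromosome 14, 14112174 to 14120984) was the member of this group that fell. It had 83.3, 93.1 and 89.9 TPM in None and 67.0, 68.9 and 58.9 TPM in LPS, without overlap. Its log2 fold change was -0.20 (adjusted p of 0.0314). It was no longer called with DESeq2 (0.0799), with RLE size factors (0.0532) and without LPS replicate 3 (0.115), None replicate 2 (0.121) or None replicate 3 (0.114), over a range of 0.000285 to 0.121. The ubiquitin receptor Psmd4 had 213.5 ± 12.8 TPM in None and 198.4 ± 6.56 in LPS. It was not called at a log2 fold change of 0.08, and was called lower at -0.18 with library totals.

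Other caps and the inhibitor also differed among themselves. Psme4, which encodes the cap PA200, was called higher at 0.48. Psme2b, a close copy of Psme2, was called higher at 0.54 from a level of 11.3 ± 1.49 TPM, and at 0.28 was not called with library totals. Psmf1, which encodes the inhibitor PI31 (chromosome 2, 151718265 to 151744186), had 21.5, 19.6 and 18.96 TPM in None and 16.1, 15.4 and 14.1 TPM in LPS. All LPS libraries lay below all None libraries, and the gene fell 1.22-fold at an adjusted p of 0.00923.

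Of the 7 assembly chaperones, the cap chaperones Psmd10 and Psmd5 and the core chaperone Psmg2 rose, none fell and 4 were not called. With library totals 2 were higher and 4 of 7 lower. Beside these counts, 34.0% of all genes tested were higher and 35.1% lower, or 22.5% and 51.0% with library totals. Psmd10, also known as gankyrin (chromosome X, 140948429 to 140956728), had 39.8, 39.4 and 37.6 TPM in None and 86.9, 74.8 and 79.4 TPM in LPS. It rose 2.42-fold, at an adjusted p of 3.18e-08. Psmd5 had a log2 fold change of 0.76 in counts and 0.22, not called, on log2(TPM + 1) values. The log2 fold changes of the genes not called were -0.08 for Psmg1, -0.13 for Psmg3, -0.14 for Psmd9 and -0.16 for Psmg4. Psmc3ip, the symbol match outside the complex, fell at a log2 fold change of -0.62 from 6.89 ± 0.95 TPM, and its call was lost without None replicate 2 (adjusted p of 0.0656), LPS replicate 1 (0.061) or LPS replicate 3 (0.0546), over a range of 0.00268 to 0.0656.

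Some of these values depend on how reads were divided. Counts of 10 genes were not whole in some library (further than 0.005 from a whole number), which shows reads shared with other sequence: Psma3, Psma4, Psma5, Psmb3, Psmb5, Psmd1, Psmd2, Psmd11, Psme2 and Psme2b. In GENCODE M21, exons of 11 proteasome genes overlap exons of a gene on the opposite strand. Among them are Psmb7 with Nek6 (405 bases), Psmb8 with Gm20496 (498 bases), Psmb9 with Tap1 (212 bases) and Psmc3 with Slc39a13 (215 bases). Library strandedness is not stated in the labels or files, so reads from such stretches cannot be told apart. Exons of 4 proteasome genes overlap exons of a gene on the same strand, where strand does not separate reads. They are Psmb5 with Mir686 (109 bases), Psmd1 with Gm21972 (301 bases), Psme2b with 9930111J21Rik1 (41 bases) and Psmg3 with Gm26938 (280 bases).

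Psmb9 and Psmb8 stand among the peptide transporter genes of the MHC, with Tap1 overlapping the start of Psmb9 on the other strand and Tap2 lying 2072 bases past Psmb8. Tap1 went from 26.9 ± 0.76 to 87.9 ± 9.70 CPM and rose 3.27-fold (adjusted p of 5.76e-09), where its neighbour Psmb9 was at 1.17-fold. Tap2 rose 2.25-fold, from 33.6 ± 0.78 to 75.5 ± 9.30 CPM. Of 11 genes for peptide transport and trimming, 7 rose and 1 fell (7 and 3 with library totals). Those that rose include the chaperones Tapbp (1.17) and Tapbpl (1.32) and the aminopeptidase Lnpep (1.26). Over all genes tested, 34.0% rose and 35.1% fell (22.5% and 51.0% with library totals). The median log2 fold change of the transport and trimming list was 0.79, against 0.38 for the 5 inducible proteasome genes. The difference between these medians was not tested.

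Of 7 regulators known to act on the inducible genes, 3 were higher and 2 lower, near the shares over all genes of 34.0% and 35.1%. Irf9 (log2 fold change of 2.03) and the class I transactivator gene Nlrc5 (1.37) rose most. Irf1, the interferon regulatory factor long tied to Psmb9 and Tap1, fell 1.84-fold between 18.02 ± 0.23 CPM and 9.79 ± 1.16 CPM (adjusted p of 1.73e-05). The counts of this list were the same with library totals.

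The factor Nfe2l1, also called NRF1, is known to raise the genes of both the core and the cap when proteasome activity runs short. Of 12 tested genes on its list, 7 rose and 2 fell (5 and 3 with library totals). Over all genes tested, 34.0% rose and 35.1% fell (22.5% and 51.0% with library totals). Nfe2l1 itself rose, with a log2 fold change of 1.58 and an adjusted p of 1.44e-08, as did its partner Maff (1.93) and Ngly1 (0.88), the glycanase that processes it. Ddi2, the protease that cleaves it into its active form, fell 2.26-fold from 107.4 ± 7.27 to 47.5 ± 2.57 CPM.

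Proteasome parts, chaperones and helpers whose symbols do not begin with Psm were higher in 5 of 5, or in 3 of 5 with library totals. They include Akirin2 (0.59), which helps carry proteasomes into the nucleus, the lid subunit Sem1 (0.50), the ubiquitin receptor Adrm1 (0.49) and the core chaperone Pomp (0.40). Of 14 genes for ubiquitin processing and delivery at the proteasome, 8 rose and 2 fell (5 and 4 with library totals), among them the shuttle Rad23b (0.74), the deubiquitinases Usp14 (0.69) and Uchl5 (0.63) and the cap-bound thioredoxin-like Txnl1 (0.67). Of 5 genes for ubiquitin and its activation, 2 rose and none fell, or 2 and 3 with library totals. Those that rose encode the ubiquitin-activating enzymes Uba6 (1.39) and Uba1 (1.11). Beside the counts of these lists, 34.0% of all genes tested were higher and 35.1% lower, or 22.5% and 51.0% with library totals.

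**Figure D4:**
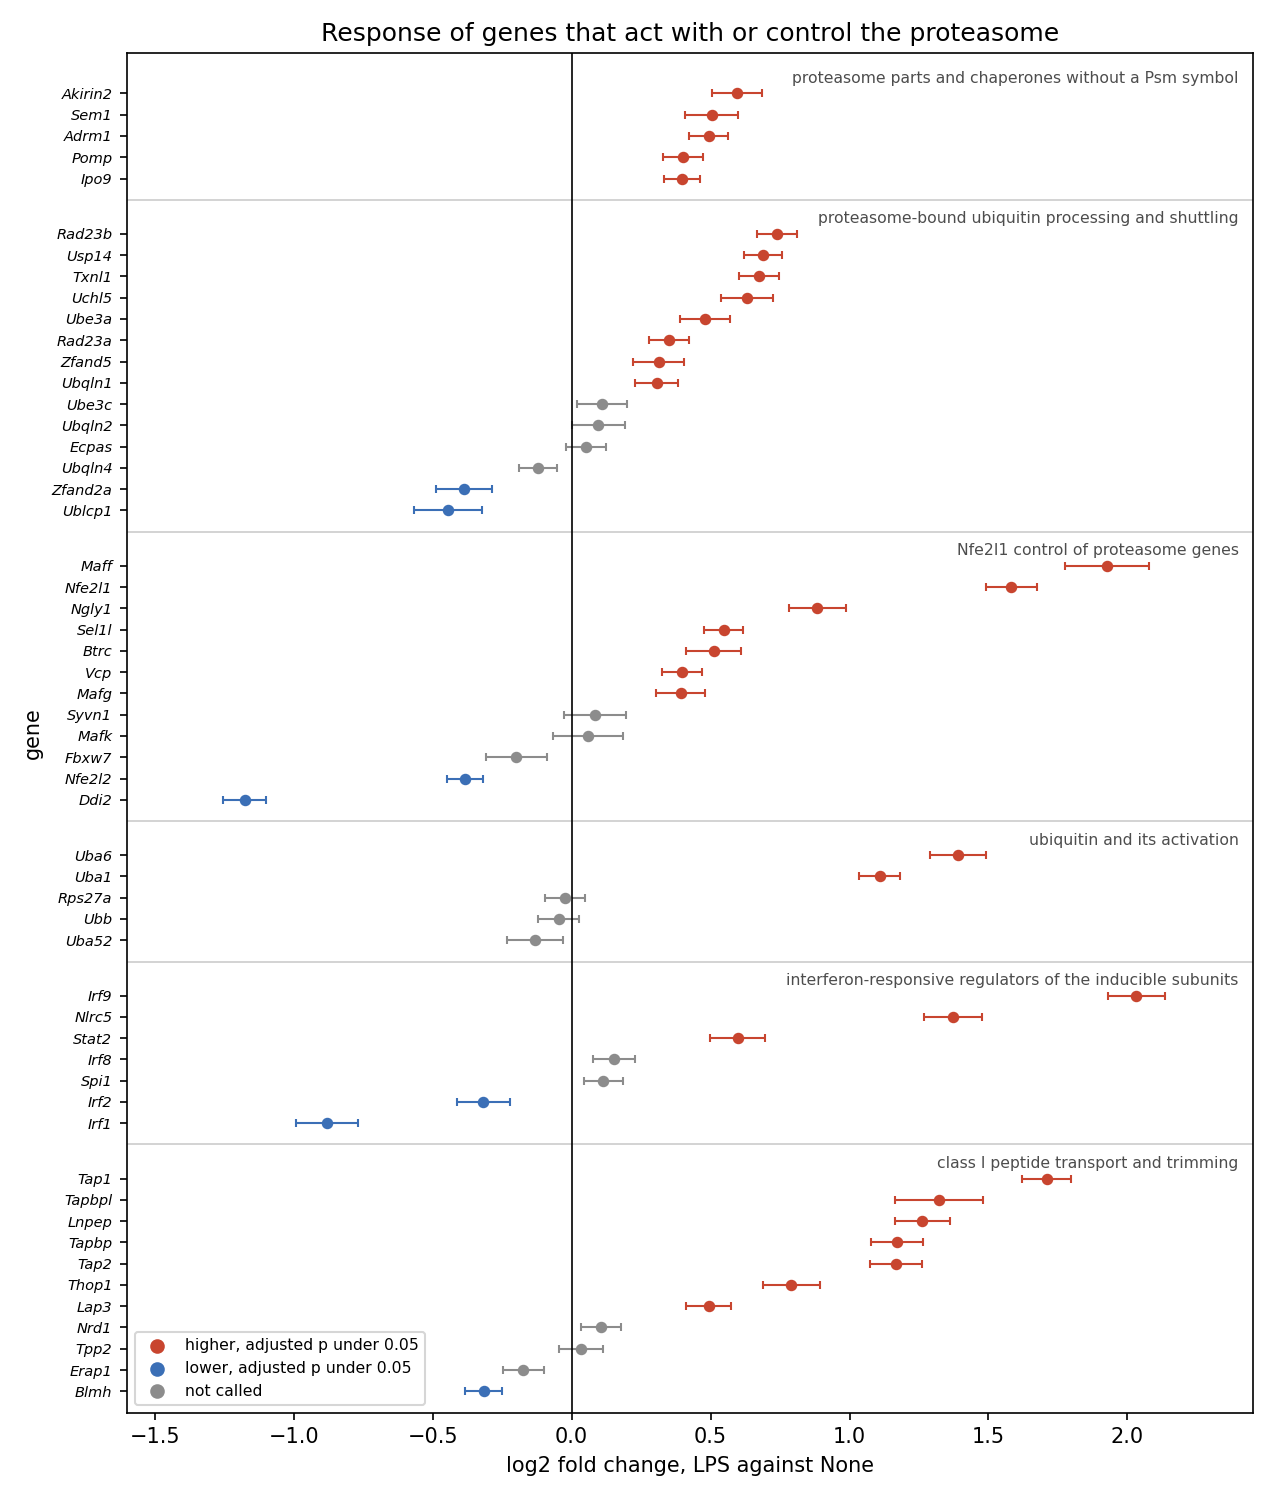
Log2 fold change of LPS against None (x axis) for genes that act with or control the proteasome (y axis), by list, with edgeR estimates and standard errors and colours for calls at an adjusted p under 0.05. Irf9 lies farthest right at 2.03, and Ddi2 and Irf1 lie farthest left at -1.18 and -0.88.

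Summed over all 49 proteasome genes, the transcript level was between 5271 and 5545 TPM in None and between 7179 and 7456 TPM in LPS, a ratio of means of 1.34. The ratios of the subcomplex sums were 1.86 for activators and inhibitor, 1.57 for the non-ATPase cap subunits, 1.34 for the alpha ring, 1.26 for the constitutive and for the inducible beta genes, 1.07 for the assembly chaperones and 0.881 for the ATPases. Single genes weighed heavily in some sums. Psme2 went from 159.5 to 482.6 TPM, within activator and inhibitor sums of 385.9 and 717.3 TPM. Among the non-ATPase subunits, with sums of 1100 and 1731 TPM, Psmd8 went from 224 to 526 and Psmd11 from 65.7 to 234.6 TPM. The inducible beta sum rose through Psmb8 (95.9 to 143.4 TPM). Psmb9 (25.2 and 24.8) and Psmb10 (39.6 and 33.8) did not rise in mean TPM. Spread within groups was small, with a median coefficient of variation of CPM over the 48 tested genes of 5.48% in None and 5.80% in LPS. None replicate 1 held the lowest None value in 29 of the 48 genes, against 14 and 5 for the other None libraries, and LPS replicate 1 the lowest LPS value in 19, against 12 and 17.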

How the data were processed

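RNA of RAW-Blue cells was sequenced as paired reads, and SOAPnuke removed reads with adapter or of low quality, per the labels' protocols. STAR 2.7.10a, RSEM 1.3.1 and GRCm38 are named in the submitters' processing notes. The authors deposited expected counts per gene, which divide shared reads and need not be whole, and TPM values, which are scaled by the authors for transcript length to 1000000 per library. Annotation, strand setting and library selection are not given in the sources used here. Of the library columns in each table, 6 were used and 12 match no label. File starts count from 0 and are printed from 1.

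Counts were rounded, filtered by filterByExpr (minimum count of 10, total of 15), which kept 11916 genes, scaled by TMM and tested two-sided with glmQLFit and glmQLFTest of edgeR 4.0.16 in R 4.3.3, with group as the single term and Benjamini-Hochberg adjustment over all genes tested (threshold 0.05). CPM uses TMM-scaled totals. The edgeR fit was also run on simulated counts. Far fewer genes changed there than were called in these data, so that run does not bear on the choice of scaling. Promoters came from RefSeq (GRCm38.p6) and exon overlaps from GENCODE M21. Libraries of a group differed by more than sampling noise (chi-square per degree of freedom of 3.15 or more). Genes and lists were chosen with earlier results of these data known. Named by rule were the inducible genes, their counterparts, the largest called changes of each subcomplex in both directions, uncalled genes, and up to 4 genes of each related list plus Tap1 and Tap2. Other genes are named as parts of ranges or lists, and some genes of the related lists are not reported here. Alternatives were RLE factors, library totals, DESeq2 1.42.0, other filters, limma 3.58.1 on log2(TPM + 1) or log2(TPM + 0.1), a replicate block, and leaving out each library.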

Additional observations from a re-analysis of the deposited data

How the results depend on the processing

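Of 47 named genes, 32 kept direction and call in all 14 alternatives. With library totals, on log2(TPM + 1) and on log2(TPM + 0.1) values, in that order, Psmb9 was at -0.03, -0.02 and -0.02, Psme3 at -0.20, -0.08 and -0.08, Psma8 at -0.23, -0.18 and -0.19, Psmc2 at -0.21, -0.17 and -0.18 and Psmd4 at -0.18, -0.10 and -0.10, each opposite in sign to the TMM value. Leaving out one library gave -0.02 to 0.12 for Psma8 (below 0 without None replicate 1, -0.01, or 2) and -0.03 to 0.09 for Psmc2 (below 0 without None replicate 1 or, at -0.02, LPS replicate 2), and Psmg1 was at 0.01 without LPS replicate 1. Of these only Psmb9 was called with TMM. Over all genes, the median shift from the TMM values was -0.26 with library totals, -0.20 on log2(TPM + 1) and -0.22 on log2(TPM + 0.1) values. The cause of the sign changes was not tested.

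Proteasome genes called higher went from 35 to 22 on TPM values with either pseudocount, and constitutive ones from 31 to 20. Lower calls went from 4 to 11 with library totals, of which 10 constitutive and 1 inducible. Higher calls of the inducible genes went from 4 to 2 with library totals and on TPM values. Changed genes numbered 2 of the ATPases with library totals or TPM (5 with TMM), 3 of the activators and inhibitor on TPM (5), and 6 of the assembly chaperones with library totals (3). They numbered 3 of the parts, chaperones and helpers without a Psm symbol with library totals (5), and 5 of the ubiquitin genes with library totals or TPM (2). Among inducible beta genes 1 was changed on TPM values and without a filter on low counts (2 with TMM). Leaving out one library gave 33 to 34 higher and 2 to 4 lower proteasome genes, 2 to 4 lower constitutive genes, 1 to 2 changed inducible beta genes and 3 to 5 changed ATPases. The 2 lower calls arose without LPS replicate 3, None replicate 2 or None replicate 3. In CPM, not corrected for length, the share of Psmb9 changed by -7.15 points, in place of -4.50, and that of Psme2 by 26.8 points, in place of 20.9.

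With a replicate block, 35 proteasome genes were higher and 4 lower, as without it, and no call of a named gene changed. The numbers share no stated culture or day: same-numbered libraries deviated together with r of 0.0825, -0.0198 and 0.00954 across genes, and not every library correlated best with its own number. Having 3 libraries a group and moderate changes limits small differences, such as those of Psmb9 and Psmd6.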
